A study of Oryza sativa Japonica Group and Oryza sativa Indica Group with 16 samples.

Results

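NAC transcription factors were followed in rice flag leaves before and during drought. A probe set was taken where the array annotation gave it 1 gene and where a symbol or synonym of that gene, without a leading Os or the O of ONAC and ignoring case, was NAC or SNAC followed by a number. This rule found 13 probe sets of 8 genes among 57381 probe sets, of which 22436 carried 1 gene symbol, for 17905 genes in all. The genes were OsNAC2 (LOC4336052), OsNAC3 (LOC4342753), OsNAC4 (LOC4327485), OsNAC5 (LOC4349963), OsNAC6 (LOC4325006), OsNAC7 (LOC4341201), ONAC010 (LOC4343630) and ONAC045 (LOC4349650). OsNAC5 and OsNAC6 had 3 probe sets each, OsNAC7 had 2 and the other genes had 1, so the probe sets of a gene were not independent members. In RefSeq 10 genes meet the rule, and the 2 of them without a probe set of 1 gene were not analysed here. The probe sets of OsNAC5, OsNAC6 and OsNAC7 are called A, B and C, in the order of the plots, which give the identifiers.

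The plants were IRAT109, the drought-resistant upland japonica cultivar, and ZS97, a drought-sensitive paddy indica cultivar, both of them grown in pipes and sampled in the reproductive stage before flowering. Leaves were collected without stress (D0) and at slight (D1), moderate (D2) and severe (D3) drought, judged by leaf rolling and relative water content. The degrees were time points of the first drying cycle, with D0 before the stress, and no array held watered leaves of the later times. The degree of drought therefore cannot be told apart from time and leaf age. Each of the 8 groups had 2 biological replicates, 1 Affymetrix array each, 16 arrays in all. Each genotype was 1 cultivar, so a difference between IRAT109 and ZS97 cannot be told apart from any other difference between these cultivars.

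NAC proteins, named after NAM, ATAF and CUC, are transcription factors found in plants that bind DNA through a conserved domain at their N-terminal end. Several members of the ATAF-like branch are switched on by drought, salt or abscisic acid, the hormone of water shortage, and rice plants that overexpress some of them tolerate drought or salt better. Other members act in leaf senescence, in cell death during immunity, in tillering or in the building of xylem walls.

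The deposited values were signal intensities on a linear scale, which depend on the probes. Those of the NAC genes were compared only within a probe set. Leaving out 2% of probe sets at either end, arrays had a mean intensity of 228 to 246, and 27.9% to 29.5% of probe sets lay below 16, the constant added before taking log2. The replicates of a group correlated at 0.997 to 0.998 over all probe sets. Both root markers had a median intensity below 16, as did 6 of 9 probe sets for seed storage proteins and 3 of 9 for floral organ genes. Of the floral probe sets, 1 had a median of 1345, and its gene (LOC4343851) carries the synonyms OsMADS2 and OsMADS18. The next highest floral median was 300.0 (OsMADS16), and the highest of the seed storage probe sets was 240.75 (GLUA2). Of 13 leaf probe sets 1 was below 16. The summed leaf signal was 60538.8 and 61631.3 in unstressed IRAT109 and 29821.6 and 30867.6 under severe drought, and in ZS97 it was 55172.8 and 57094.2 at D0 and 21323 and 21475.4 at D3. In these bulk leaves fewer cells of a type and less RNA per cell cannot be told apart, and the part of the lower leaf signal in the NAC changes was not tested.

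A change was called where its adjusted p in limma (Benjamini-Hochberg over all probe sets) was under 0.05 and its fold was over 2, and "rose" and "fell" are used for such changes. OsNAC2 rose at every degree of drought in both genotypes, and it was the only probe set of the 13 to do so. ONAC010 rose at every degree in ZS97 and at D1 and D3 in IRAT109. OsNAC6 rose at D2 and D3 in ZS97 but only at D3 in IRAT109, OsNAC4 rose in IRAT109 at D1, and OsNAC3 rose in ZS97 at D2 and D3 and at no degree in IRAT109. OsNAC5 fell at D1 in IRAT109 at 1 probe set and at D2 in both genotypes at another, and no probe set of it was called at D3. Of the 13 probe sets 6 were called at 1 or more degrees in IRAT109, 5 in ZS97 and 7 in either genotype, and 6 were called at none. By direction, 4 rose and 2 fell in IRAT109, where 4.22% of all probe sets rose and 5.4% fell at 1 or more degrees, and 4 rose and 1 fell in ZS97, where 4.7% rose and 4.61% fell.

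**Figure D1:**
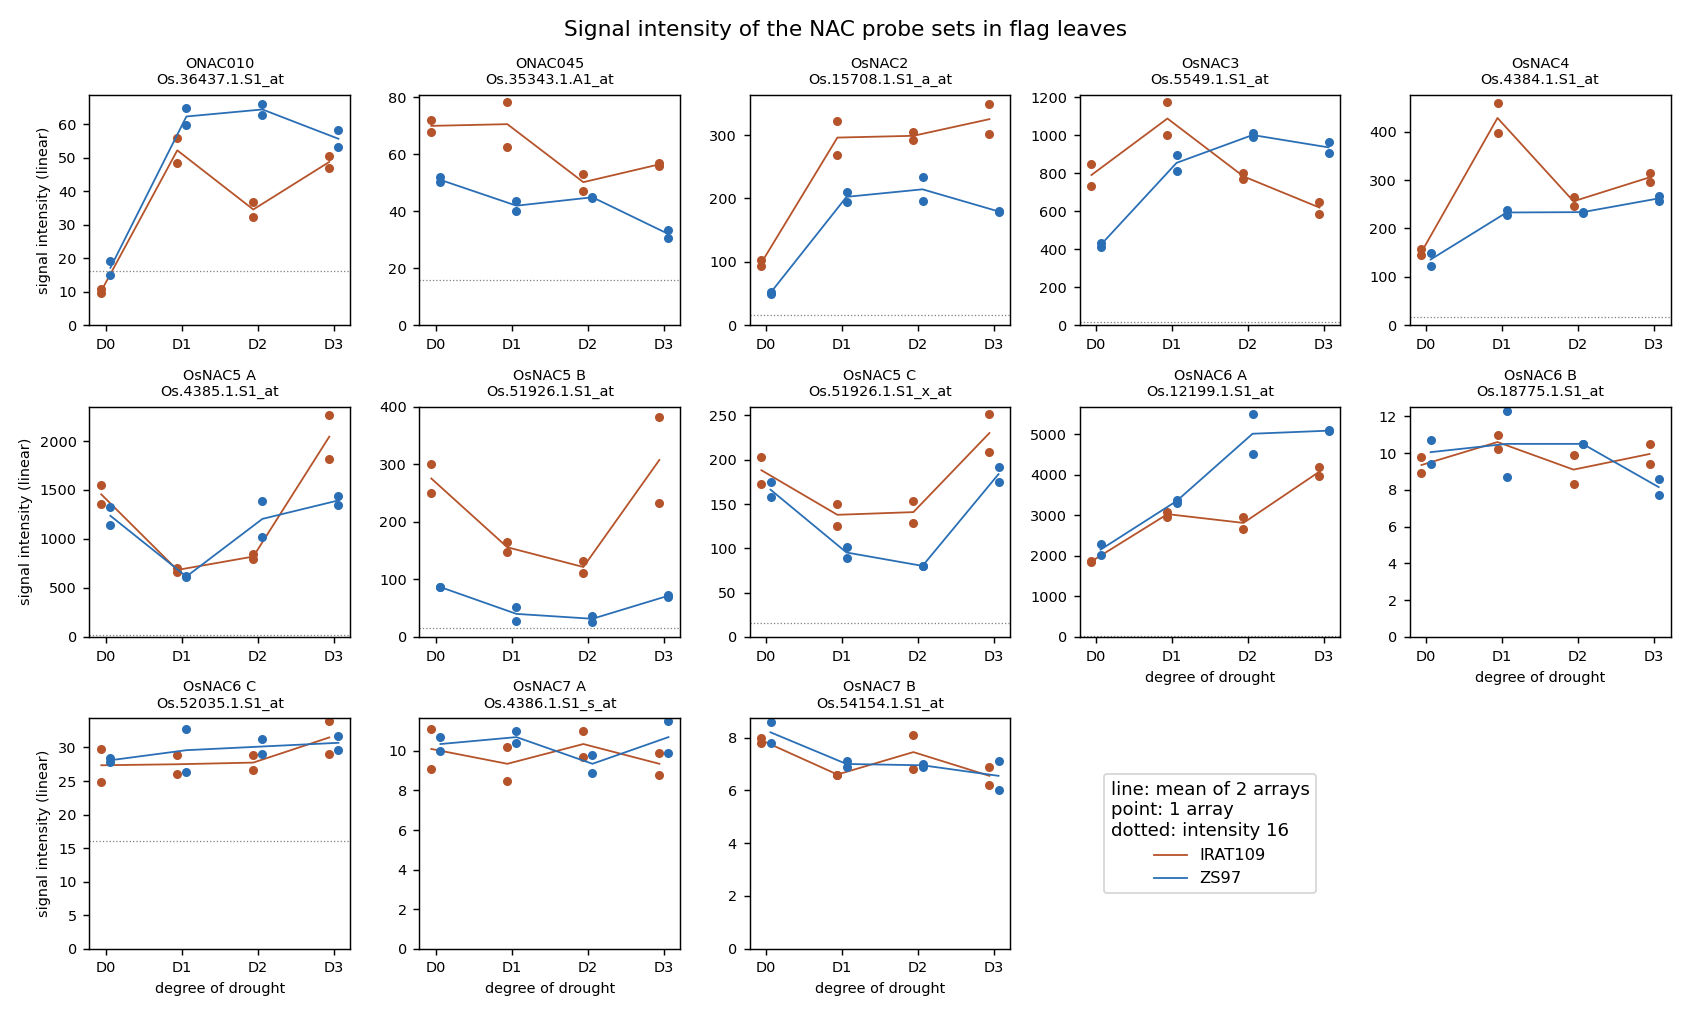
Signal intensity (linear, arbitrary units, each panel with its own axis from 0) of the 13 NAC probe sets against the degree of drought, with 1 point per array, lines through the means of 2 arrays and a dotted line at intensity 16. OsNAC2 and ONAC010 stepped up from D0 to D1 in both genotypes, the lines of OsNAC3 crossed between D1 and D2, and the 3 probe sets of OsNAC5 dipped and returned.

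In IRAT109, 3 of the 13 probe sets rose and 1 fell at D1, where 2.87% of all probe sets rose and 3.38% fell. At D2, 1 rose and 1 fell against 2.99% and 4.33% of all probe sets, and at D3, 3 rose and 0 fell against 3.42% and 4.78%. In ZS97, 2 rose and 0 fell at D1 (2.47% and 2.97% of all probe sets), 4 rose and 1 fell at D2 (3.53% and 3.73%), and 4 rose and 0 fell at D3 (4.23% and 4.16%). The share of NAC probe sets that rose was thus above the share over the array in each of these comparisons, on counts of 1 to 4. Where a probe set fell, the share that fell was above that of the array too, on counts of 1. With 13 probe sets a single call already lies above each of these shares. The median change of the 13 stayed close to that of all probe sets, with 0.13 against 0.02 on the log2 scale in IRAT109 at D3 and 0.13 against -0.01 in ZS97 at D3. The comparisons of D1, D2 and D3 share the D0 arrays of their genotype.

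OsNAC2, also known as ONAC004 and OsTIL1, acts in tillering and in leaf senescence linked to abscisic acid. Its intensity in IRAT109 was 93.5 and 103.3 at D0, 323.1 and 269.2 at D1, 292.7 and 305.2 at D2, and 301.8 and 348.7 at D3. ZS97 had intensities of 49.0 and 53.0 at D0, 210.3 and 194.8 at D1, 233.2 and 195.7 at D2, and 178.8 and 180.3 at D3. All stressed arrays of a genotype lay above its D0 arrays, and the stressed levels lay close to each other. The log2 change against D0 was 1.44 (SE 0.099, adjusted p = 9.75e-08), 1.46 and 1.57 at D1, D2 and D3 in IRAT109, which is 2.72-fold to 2.98-fold. In ZS97 the log2 change was 1.71 (adjusted p = 2.31e-08), 1.78 and 1.55, which is 2.92-fold to 3.43-fold. None of the alternatives run, leaving out each array included, changed any of these 6 calls. The mean change over D1 to D3 was 1.49 in IRAT109 and 1.68 in ZS97, and their difference of -0.18 (95% interval -0.43 to 0.07, adjusted p = 0.306) was not called.

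ONAC010 had a dim signal, with 3 of 16 arrays below 16. In IRAT109 its intensity was 9.5 and 10.9 at D0, 55.8 and 48.5 at D1, 32.3 and 36.7 at D2, and 47.0 and 50.4 at D3. In ZS97 the intensity was 15.1 and 19.1 at D0, 64.9 and 59.6 at D1, 65.9 and 62.8 at D2, and 58.2 and 53.0 at D3. The D0 arrays lay apart from all stressed arrays in both genotypes, and the IRAT109 arrays at D2 were the lowest of the stressed ones. The log2 change was 1.38 (SE 0.079, adjusted p = 1.75e-08) at D1, 0.95 (adjusted p = 5.39e-07, not called) at D2 and 1.30 at D3 for IRAT109, and ZS97 gave 1.24, 1.28 and 1.11. The size of these changes follows the constant added to the intensity, since D0 lay near or below it. At D1 in IRAT109 the log2 change was 2.25 with a constant of 1 and 0.65 with a constant of 64, and in ZS97 it was 1.81 and 0.64. With the constant of 64 ONAC010 passed the 2-fold limit in no comparison, and without replicate 1 of IRAT109 at D2 its change there was 1.01 and called. The mean changes of both genotypes were 1.21, with a 95% interval of -0.20 to 0.19 for their difference. By degree, the change in IRAT109 minus that in ZS97 was 0.13 at D1, -0.34 at D2 and 0.19 at D3, none called. At D2 its 95% interval was -0.58 to -0.09 (adjusted p = 0.0486 in limma).

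OsNAC6, which is also SNAC2, is a factor induced by drought, salt and cold. At probe set A the intensity in IRAT109 was 1859.2 and 1869.1 at D0, 2964.6 and 3093.2 at D1, 2960.2 and 2663.8 at D2, and 3967.5 and 4189.5 at D3. ZS97 leaves gave intensities of 2013.2 and 2292.4 at D0, 3314.9 and 3388.0 at D1, 5500.9 and 4524.2 at D2, and 5104.7 and 5072.3 at D3. All stressed arrays were above the D0 arrays, the D2 and D3 arrays of ZS97 overlapped above those of D1, and in IRAT109 the D3 arrays were the highest. The log2 change in IRAT109 was 0.70 (SE 0.089, adjusted p = 3.54e-05) at D1, 0.59 at D2 and 1.12 (adjusted p = 3.03e-07) at D3, of which only the last passed the 2-fold limit. In ZS97 it was 0.64 at D1, 1.21 (adjusted p = 1.71e-07) at D2 and 1.24 at D3. The mean change in ZS97, 1.03, was 0.94 without replicate 1 of D0 and 0.98 without replicate 1 of D2, and was then not called.

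The other probe sets of OsNAC6 passed no threshold. Probe set B had an intensity of 7.7 to 12.3, below 16 on all 16 arrays, and probe set C one of 24.9 to 33.9. Over the 8 group means probe set A correlated at 0.84 with C and at -0.098 with B, and the arrays of C in ZS97 at D2 and D3 all lay above those at D0, by log2 changes of 0.07 and 0.08 (adjusted p = 0.639 and 0.509 in limma). Neither was called in any of the 20 comparisons, so the called rise of OsNAC6 rests on 1 of its 3 probe sets.

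OsNAC4, also ONAC068, is known for a role in hypersensitive cell death during plant immunity. In IRAT109 its intensity was 144.8 and 157.6 at D0, 397.7 and 459.8 at D1, 265.4 and 247.2 at D2, and 296.8 and 314.8 at D3. ZS97 had intensities of 122.6 and 148.9 at D0, 227.3 and 239.0 at D1, 235.1 and 232.6 at D2, and 257.5 and 267.0 at D3. IRAT109 thus had a peak at D1, with both arrays above all other arrays of the gene, whereas ZS97 stayed nearly level from D1 to D3. The log2 change at D1 was 1.41 (SE 0.087, adjusted p = 3.61e-08) in IRAT109 and 0.72 (adjusted p = 2.41e-05, not called) in ZS97. At D2 it was 0.70 and 0.72 and at D3 0.95 and 0.88, all under the 2-fold limit. Without replicate 2 of D0 the change of IRAT109 at D3 was 1.0, and without replicate 2 of D0 that of ZS97 at D3 was 1.01, and both were then called. In IRAT109 at D3 it was also called with quantile normalization, at 1.03, and with a constant of 1, at 1.01. The mean change of IRAT109 was 1.02 and called, but it was 0.96 without replicate 1 of D0, 0.99 without replicate 2 of D1 and 0.85 with a constant of 64.

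OsNAC3, also ONAC067, takes part in the response to abscisic acid. In IRAT109 its intensity was 733.5 and 848.6 at D0, 1002.1 and 1175.6 at D1, 800.2 and 767.8 at D2, and 588.2 and 650.9 at D3. The ZS97 arrays gave intensities of 431.6 and 411.8 at D0, 898.4 and 811.8 at D1, 1012.4 and 991.5 at D2, and 964.8 and 908.6 at D3. The D2 arrays of IRAT109 overlapped its D0 arrays and its D3 arrays lay below them, while all stressed arrays of ZS97 lay above D0. The log2 change in IRAT109 was 0.45 (SE 0.090, adjusted p = 0.00138) at D1, -0.01 (adjusted p = 0.959) at D2 and -0.34 (adjusted p = 0.00861) at D3, none of it over 2-fold. For ZS97 the log2 change was 0.99 (adjusted p = 1.66e-06, 1.99-fold) at D1, 1.22 (adjusted p = 1.72e-07) at D2 and 1.12 (adjusted p = 3.23e-07) at D3. The change of ZS97 at D1 lay just under the limit, and it was called at 1.02 without replicate 1 of D0 and at 1.06 without replicate 2 of D1.

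OsNAC5, also ONAC071, belongs to the ATAF-like branch, is induced by abscisic acid and has been tied to flag leaf senescence and to the export of metals to the grain. Its probe set A had an intensity in IRAT109 of 1359.2 and 1551.8 at D0, 664.9 and 702.2 at D1, 845.0 and 795.4 at D2, and 1820.6 and 2269.0 at D3. ZS97 leaves gave intensities of 1143.8 and 1329.6 at D0, 623.2 and 609.6 at D1, 1385.9 and 1023.9 at D2, and 1437.8 and 1349.5 at D3. In both genotypes the D1 arrays were the lowest, and ZS97 was back at its D0 level at D2, where its arrays overlapped D0, while IRAT109 was not. The log2 change at D1 was -1.07 (SE 0.133, adjusted p = 2.74e-05) in IRAT109 and -0.98 (adjusted p = 6.81e-05, 1.98-fold) in ZS97. At D2 it was -0.81 (adjusted p = 2.69e-04) in IRAT109 and -0.05 (adjusted p = 0.853) in ZS97. At D3 it was 0.48 (adjusted p = 0.0122) and 0.17 (adjusted p = 0.379), not called in either. The call of IRAT109 at D1 was lost without replicate 2 of D0 (-0.98), and ZS97 at D1 was called without replicate 1 of D0 (-1.09).

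The other probe sets of OsNAC5 also had their lowest levels at D1 or D2 and a higher one at D3. Probe set B had in IRAT109 an intensity of 300.1 and 250.4 at D0, 164.7 and 146.8 at D1, 131.5 and 111.4 at D2, and 232.5 and 382.5 at D3. In ZS97 it was 86.1 and 86.9 at D0, 52.0 and 27.9 at D1, 26.5 and 36.4 at D2, and 73.3 and 69.9 at D3. Every IRAT109 array was above every ZS97 array of this probe set, and its replicates lay furthest apart, in intensity, in IRAT109 at D3. It fell at D2 by 1.08 on the log2 scale (SE 0.215, adjusted p = 0.00125) in IRAT109 and by 1.12 (adjusted p = 0.00104) in ZS97. These calls were lost without replicate 1 of D0 (-0.96) or replicate 2 of D2 (-0.98) in IRAT109 and without replicate 1 of D2 (-0.97) in ZS97, and at D1 in ZS97 the change of -0.91 was -1.22 and called without replicate 1 of D1. With a constant of 64 the changes at D2 were -0.87 and -0.66, neither called.

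Probe set C of OsNAC5, whose identifier ends in a code for probes that may bind other transcripts too, had an intensity in IRAT109 of 203.5 and 172.9 at D0, 125.1 and 150.6 at D1, 153.1 and 128.7 at D2, and 208.9 and 251.5 at D3. ZS97 had intensities of 174.9 and 157.6 at D0, 101.3 and 89.3 at D1, 80.0 and 80.3 at D2, and 175.3 and 192.3 at D3. The arrays of D1 and D2 lay below those of D0 in both genotypes, but no change against D0 passed the 2-fold limit. The log2 change at D2 was -0.38 (SE 0.115, adjusted p = 0.0198) in IRAT109 and -0.92 (adjusted p = 2.59e-05) in ZS97. Over the 8 group means, the 3 probe sets of OsNAC5 correlated pairwise at 0.45, 0.65 and 0.82, given as a description over groups of the same arrays.

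ONAC045 is described as inducible by drought, salt, cold and abscisic acid, with better drought and salt tolerance on overexpression. In IRAT109 its intensity was 67.7 and 72.1 at D0, 78.4 and 62.6 at D1, 47.2 and 53.1 at D2, and 56.9 and 55.9 at D3. The ZS97 arrays gave intensities of 50.1 and 51.8 at D0, 43.6 and 40.2 at D1, 45.0 and 44.7 at D2, and 30.5 and 33.4 at D3. No stressed array of ZS97 and, apart from 1 array at D1, none of IRAT109 was above the D0 arrays of its genotype. The log2 change was between 0.00 and -0.38 in IRAT109 and between -0.14 and -0.48 in ZS97 (SE 0.080), lowest in ZS97 at D3 (-0.48, adjusted p = 2.79e-04), and ONAC045 was called in none of the 20 comparisons.

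OsNAC7, also ONAC076, gave its name to the subgroup that holds the xylem vessel factors of Arabidopsis. Its probe sets A and B had intensities of 8.5 to 11.5 and 6.0 to 8.6, below 16 on all 16 arrays. Neither was called in any comparison, and a fall of OsNAC7, or a change within this dim range, was not detectable here.

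**Figure D2:**
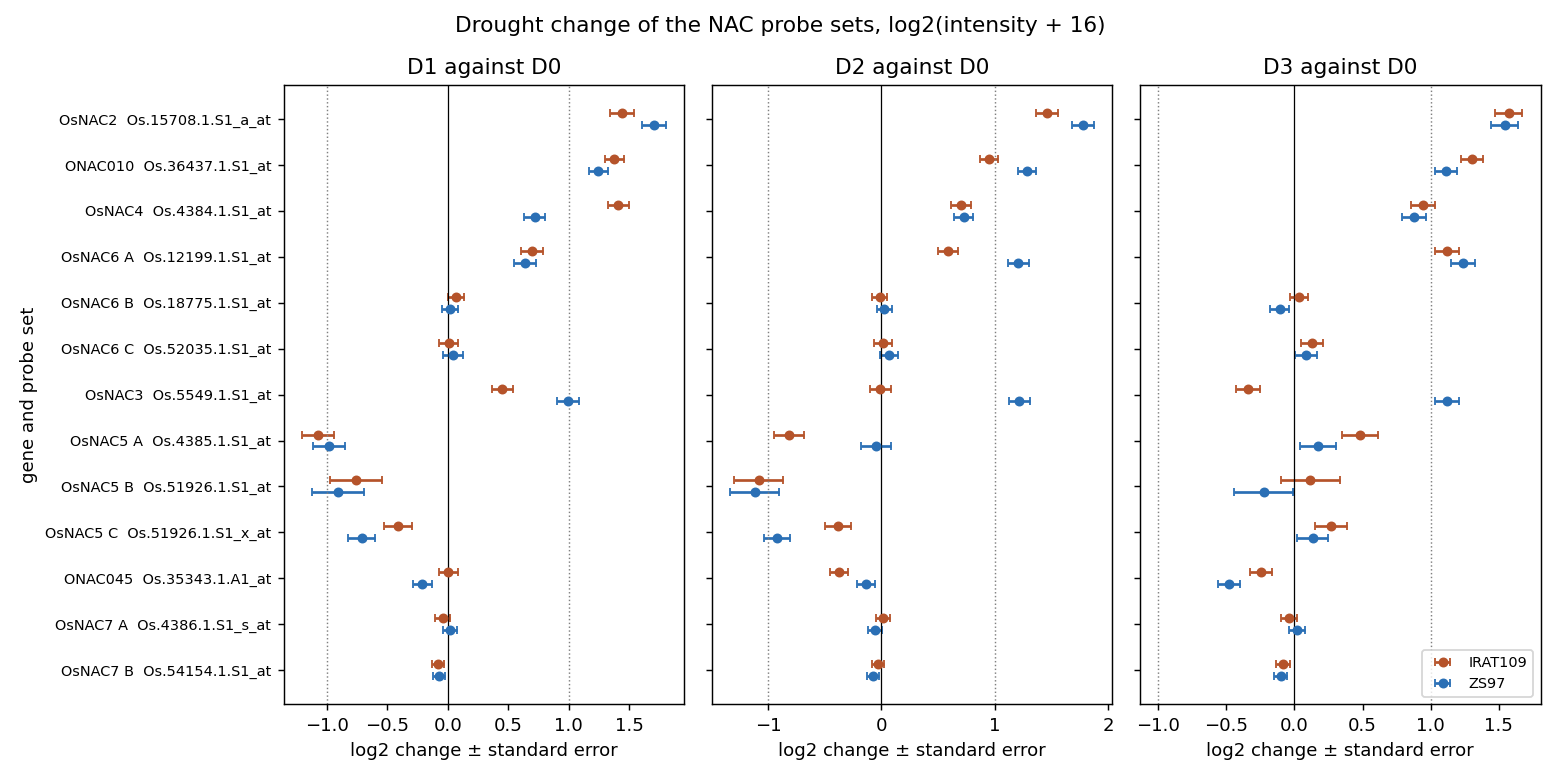
Log2 change of intensity plus 16 against D0 for the 13 NAC probe sets at D1, D2 and D3 (1 panel each), with the estimate of the 8-group fit as a point, its standard error as a bar and dotted lines at 2-fold. OsNAC2 lay right of the 2-fold line in all panels, OsNAC3 lay there only in ZS97 at D2 and D3, and the OsNAC5 probe sets lay left of 0 at D1 and, except 1 in ZS97 at D2, clearly so at D2.

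The steps between degrees of drought were compared next. From D1 to D2 limma called 0 of the 13 probe sets in IRAT109, where 0.0192% of all probe sets rose and 0.115% fell, and 0 in ZS97, where 0.462% rose and 0.254% fell. An unadjusted p under 0.05 was found for 4 and 3 of the 13, a count that was not made over all probe sets. The change of OsNAC4 in IRAT109 was -0.71 (adjusted p = 6.58e-04), with both D2 arrays below both D1 arrays. In the same step OsNAC3 changed by -0.46 (adjusted p = 0.0137), ONAC010 by -0.43 (adjusted p = 0.00958) and ONAC045 by -0.38 (adjusted p = 0.0195). In ZS97 the change of OsNAC6 was 0.57 (adjusted p = 0.00108), and that of OsNAC5 probe set A was 0.93 (adjusted p = 5.46e-04), or 1.15 and called without replicate 2 of D2.

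From D2 to D3, OsNAC5 was the only NAC gene that was called. In IRAT109 probe set A had a log2 rise of 1.29 (2.45-fold, SE 0.133, adjusted p = 3.74e-05) and probe set B one of 1.20 (2.30-fold, adjusted p = 0.00259), 2 of 13 probe sets against 0.467% of all that rose and 0.16% that fell. The call of B was lost without replicate 2 of D3, where the change was 0.86, and with a constant of 64 (0.97). In ZS97 probe set C rose by 1.05 (2.08-fold, adjusted p = 2.20e-04), 1 of 13 against 0.141% of all that rose and 0.0871% that fell. It was not called without replicate 2 of D3 (0.99), after quantile normalization (0.997) or with a constant of 64 (0.78). The remaining OsNAC5 changes at this step were 0.65 (adjusted p = 0.00235) for C in IRAT109, and 0.22 (adjusted p = 0.526) for A and 0.89 (adjusted p = 0.0375) for B in ZS97. All 3 probe sets were higher at D3 than at D2 in IRAT109 on both arrays. The change of OsNAC6 was 0.54 (adjusted p = 0.00154) in IRAT109 and 0.03 (adjusted p = 0.952) in ZS97, neither of them called.

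Whether the genotypes differed in their response was tested as a difference of changes against D0, that of ZS97 subtracted from that of IRAT109. OsNAC3 was the only NAC gene called. Its difference was -0.54 (SE 0.127, 95% interval -0.82 to -0.26, adjusted p = 0.0118) at D1, -1.23 (95% interval -1.50 to -0.95, adjusted p = 1.65e-05) at D2 and -1.46 (95% interval -1.74 to -1.19, adjusted p = 5.00e-06) at D3. It passed the 2-fold limit at D2 and D3, and no array left out changed these calls. The difference of the mean changes was -1.08 (adjusted p = 8.12e-06) and called, but was -0.97 without replicate 2 of IRAT109 at D0, -0.99 after quantile normalization and -0.999 with a constant of 64, each just under the limit.

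At D1 limma called 0 of 13 probe sets for this difference, where 1.26% of all probe sets were called higher and 1.59% lower. Of the 13, 2 had an unadjusted p under 0.05, a count that was not made over all probe sets. At D2 0 were called higher and 1 lower against 1.54% and 2.65% of all probe sets, and at D3 0 and 1 against 1.3% and 2.11%. Below the 2-fold limit, OsNAC4 differed at D1 by 0.69 (95% interval 0.42 to 0.96, adjusted p = 0.00192), with the larger change in IRAT109, and by -0.02 (95% interval -0.29 to 0.25) at D2. OsNAC6 differed at D2 by -0.62 (95% interval -0.90 to -0.35, adjusted p = 0.00307), with the larger change in ZS97, and by -0.12 (95% interval -0.39 to 0.16) at D3. ONAC010 differed at D2 by -0.34 (adjusted p = 0.0486), also with the larger change in ZS97. For OsNAC5 at D2 the probe sets did not share a direction, with -0.76 (adjusted p = 0.0106) for A, 0.54 (adjusted p = 0.0303) for C and 0.04 (adjusted p = 0.956) for B.

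**Figure D3:**
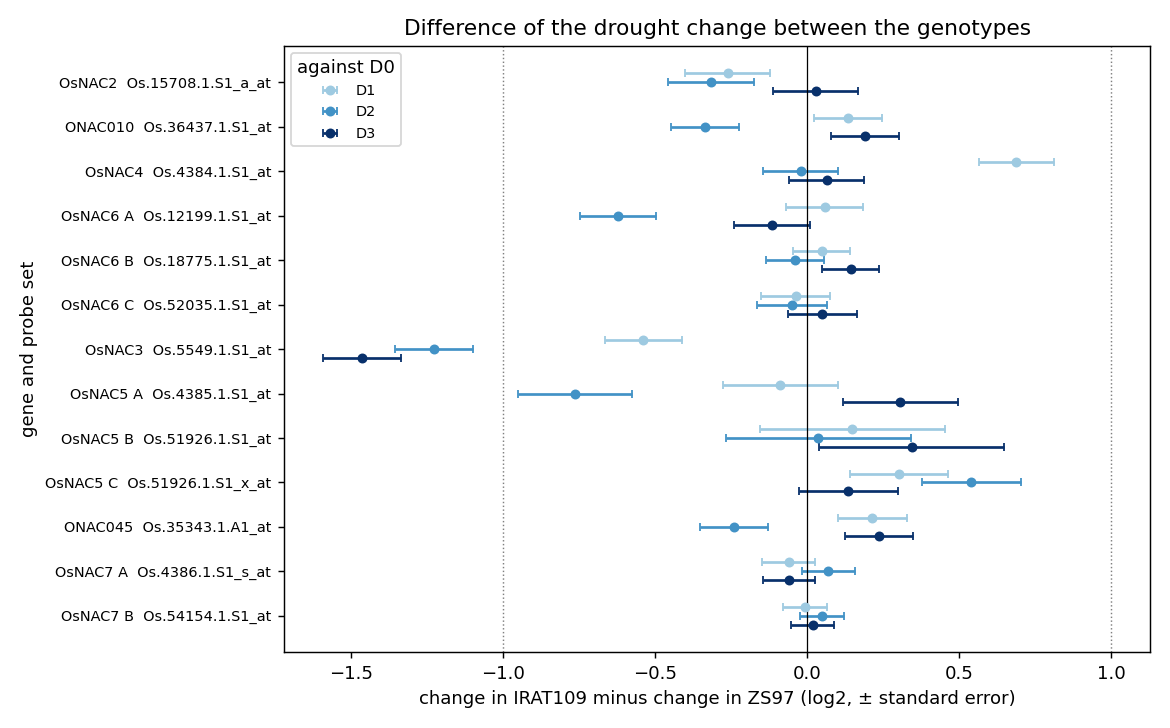
Change against D0 in IRAT109 minus that in ZS97 (log2 of intensity plus 16) for the 13 NAC probe sets at D1, D2 and D3, with points as estimates, bars as standard errors and dotted lines at 2-fold. OsNAC3 at D2 (-1.23) and D3 (-1.46) lay beyond the line on the left, OsNAC4 stood at 0.69 at D1, and OsNAC6 at -0.62 at D2.

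The levels of IRAT109 and ZS97 were also compared at the same degree of drought. OsNAC5 probe set B was the only NAC probe set called, higher in IRAT109 at all 4 degrees. The log2 difference was 1.50 (SE 0.215, 2.83-fold, adjusted p = 1.40e-04) at D0, 1.65 at D1, 1.54 at D2 and 1.85 (3.59-fold, adjusted p = 1.81e-05) at D3. With a constant of 64 the difference at D2 was 0.96 and not called. This was 1 of 13 each time, where 3.07%, 3.28%, 3.3% and 2.94% of all probe sets were called higher in IRAT109 and 1.8%, 2.25%, 3.35% and 2.66% lower. The remaining OsNAC5 probe sets gave 0.23 (adjusted p = 0.239) and 0.16 (adjusted p = 0.356) at D0, so the probe sets of OsNAC5 did not give the same genotype difference. Sequence differences between the cultivars under the probes were not tested.

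The order of the cultivars turned for OsNAC3. It was higher in IRAT109 at D0 by 0.88 (SE 0.090, adjusted p = 6.62e-06) and at D1 by 0.34 (adjusted p = 0.0115), and lower in IRAT109 at D2, with -0.35 (adjusted p = 0.00875), and at D3, with -0.59 (adjusted p = 1.98e-04). The arrays of the cultivars did not overlap at any of these degrees, while each difference stayed under 2-fold. OsNAC2 was higher in IRAT109 at every degree, by 0.77, 0.51, 0.46 and 0.80 from D0 to D3, also with no overlap of arrays. OsNAC4 overlapped at D0 (0.14, adjusted p = 0.268) and differed at D1 by 0.83 (adjusted p = 7.27e-06). OsNAC6 and ONAC010 were lower in IRAT109 by the most at D2, with -0.83 (adjusted p = 7.64e-06) and -0.67 (adjusted p = 1.68e-05). ONAC045 was higher in IRAT109 by 0.36, 0.57, 0.12 and 0.60 from D0 to D3. Sequence differences under the probes were not tested for OsNAC3 or these other genes either. The order of the cultivars at a degree therefore cannot be told apart from a difference in probe binding.

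**Figure D4:**
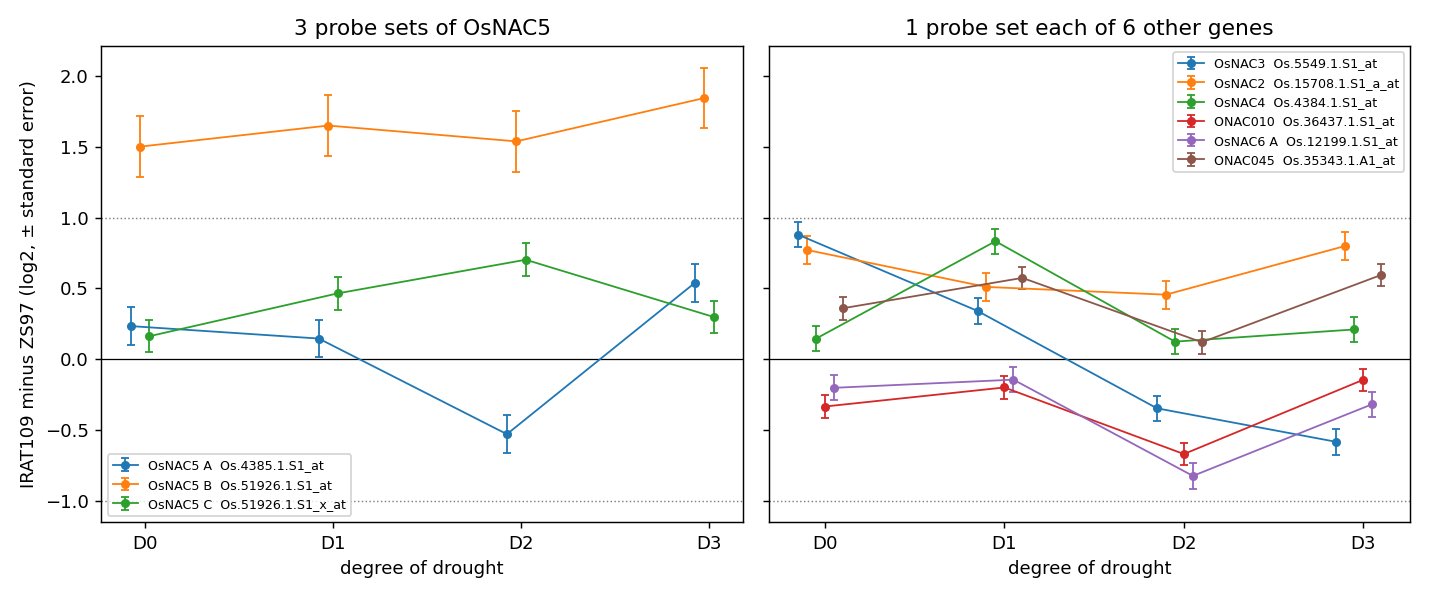
Difference of IRAT109 minus ZS97 (log2 of intensity plus 16) at D0 to D3 for the 3 probe sets of OsNAC5 (left) and 1 probe set each of 6 other NAC genes (right), with bars as standard errors and dotted lines at 2-fold. OsNAC5 probe set B stayed between 1.50 and 1.85, and OsNAC3 went from 0.88 at D0 to -0.59 at D3.

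Genes that act around the NAC factors were counted from lists of abscisic acid signalling genes and of genes described downstream of rice NAC factors. Planned names without a probe set of 1 gene in the annotation were not counted, such as SRO1C, PP18, NYC3, PAO, NCED3, NCED4 and NCED5. Of 12 probe sets for abscisic acid signalling, each of a different gene, 4 rose and 1 fell in the mean change of IRAT109 and 4 rose and 1 fell in that of ZS97. Apart from OsBZIP23 and OsPYL5 all were kinases of the SAPK family, so the counts are mainly of that family. OsPYL5 had a change of 0.68 in IRAT109 and 0.53 in ZS97, neither of them called. Over the array, 2.97% of probe sets rose and 4.07% fell in IRAT109, and 3.32% rose and 3.54% fell in ZS97. In the same mean changes 3 and 4 of the 13 NAC probe sets rose and 0 fell. The median change of the signalling list was 0.53 in IRAT109 and 0.40 in ZS97, against 0.01 and -0.01 over all probe sets. The transcription factor OsBZIP23 had log2 rises of 1.85 (adjusted p = 1.69e-12) in IRAT109 and 1.49 in ZS97, and the protein kinase OsSAPK10 by 1.52 and 1.76. The kinase OsSAPK2 fell by 1.52 and 1.76. The genes that rose were not all the same in the cultivars. OsSAPK3 rose in IRAT109 by 1.14 and had a change of 0.40 in ZS97 (not called), and OsSAPK1 rose in ZS97 by 1.35 and had one of 0.23 in IRAT109 (not called). The mean response in IRAT109 minus that in ZS97 was -1.12 for OsSAPK1 (adjusted p = 1.89e-06 in limma), the 1 gene of the 12 called for it, and 0.74 for OsSAPK3, under 2-fold.

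Of 13 probe sets of 10 genes on the downstream list, 7 rose and 0 fell in IRAT109, with a median of 1.65, and 11 rose and 0 fell in ZS97, with a median of 3.60. The dehydrin gene RAB21 had log2 rises of 8.38 in IRAT109 and 7.95 in ZS97 at the first of its probe sets, and OsLEA3-1, a late embryogenesis abundant protein gene, by 7.14 and 7.44. SGR, the stay-green gene of chlorophyll breakdown, rose by 1.65 and 3.72 at the first of its probe sets. Between the genotypes, 0 of the 13 were called with a larger mean change in IRAT109 and 5 with a larger one in ZS97, where 1.2% and 1.87% of all probe sets were called. They were both probe sets of SGR (-2.08 and -1.90), both of OsNOL (-1.10 and -1.04), which encodes a chlorophyll b reductase, and that of the dehydrin gene RAB16D (-4.03). The other probe sets of RAB16 genes and RAB21 did not share the direction of RAB16D. Their differences were 0.40 for RAB16B, 0.05 for RAB16C, and 0.43 and 0.28 for RAB21, none of them called. The RAB16 genes resemble each other, so that their probe sets may share signal. Sequence differences between the cultivars under the probes of RAB16D were not tested. The difference of OsNAC3 in the same comparison was -1.08, a call that some of the alternatives took away. The list does not pair its genes with single NAC factors, and the part of OsNAC3 in these changes was not tested.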

How the data were processed

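Flag leaf RNA of 16 samples was hybridised to Affymetrix Rice Genome Arrays. The authors deposited 1 linear signal intensity per probe set and array. The labels name MAS5, without a version, and the methods name a robust multiarray average with quantile normalization, and it was not settled which method gave these values. The columns are not quantile normalized.

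The limma package (3.58.1, R 4.3.3) was used to test changes of log2 of the intensity plus 16, in 1 model with 8 group means over 16 arrays (8 residual and 4.28 prior degrees of freedom, median residual SD 0.083). A call needs an adjusted p under 0.05 over all 57381 probe sets and a fold over 2. The number of arrays, 2 per group, limits the precision. Members, lists and comparisons were chosen with earlier results of these data known. Named with values were members on a list of stress or senescence factors and members called in a comparison, and the remaining ones are given by ranges. Names come from the platform annotation and the RefSeq gene table, and a gene they do not pair with a probe set, such as SNAC1, was not analysed here.

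Alternatives were quantile normalization, constants of 1 and 64, dim probe sets filtered out, median centring, an intensity trend, an unadjusted p under 0.01, 1 probe set per gene, arrays of 1 genotype, the replicate number as a block, and leaving out each array. Rank products, the test of the methods, were not run. No sequence is shown.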

Additional observations from a re-analysis of the deposited data

Results flagged for a closer look

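The response of OsNAC3 differed between the cultivars, by the test of the difference itself. The change against D0 in IRAT109 minus that in ZS97 was -1.23 on the log2 scale at D2, -1.46 at D3 and -1.08 for the mean of D1 to D3. In these comparisons OsNAC3 was the only one of the 13 NAC probe sets that was called. Over the array, 2.65%, 2.11% and 1.87% of all probe sets were called lower at D2, at D3 and for the mean, and 1.54%, 1.3% and 1.2% higher. The difference for the mean fell just under the 2-fold limit in some alternatives. It was -0.97 without replicate 2 of IRAT109 at D0, -0.99 after quantile normalization and -0.999 with the larger of the alternative constants. Both replicates of ZS97 were above their D0 arrays at every degree of drought. Those of IRAT109 lay above D0 at D1 (log2 change 0.45, not called), around it at D2 and below it at D3.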

How the results depend on the processing

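No called change of a NAC probe set changed its sign under any alternative, and the filter on dim probe sets, the intensity trend, median centring, the unadjusted p and the fit on 1 genotype changed no call of a probe set that they kept. The replicate numbers did not pair the samples (28 pairs of groups, correlation -0.32 to 0.16, 1 above 0.1), and with the replicate block all 20 counts were the same, from 0 NAC calls between D1 and D2 to 5 in ZS97 at D2, as were the calls of all 260 changes. Quantile normalization moved the array medians by -0.0094 to 0.013 and median centring by -0.027 to 0.024 on the log2 scale.

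The counts that moved by over 1.5 times were as follows. With a constant of 1, the count of NAC calls went from 2 to 4 in ZS97 at D1 and from 1 to 2 in ZS97 from D2 to D3. The calls gained were OsNAC3 (1.02) and OsNAC5 probe set B (-1.16) in ZS97 at D1, B (1.18) in ZS97 from D2 to D3 and, in counts that moved less, ONAC010 in IRAT109 at D2 (1.66), OsNAC4 in IRAT109 at D3 (1.01) and OsNAC5 probe set C in ZS97 at D2 (-1.04). With a constant of 64, it went from 2 to 1 in IRAT109 at D2, from 3 to 1 for the mean in IRAT109, from 2 to 1 in IRAT109 from D2 to D3, from 2 to 1 in ZS97 at D1, from 5 to 3 in ZS97 at D2, and from 1 to 0 in ZS97 from D2 to D3, for the mean difference of response and for the genotypes at D2. With quantile normalization it went from 1 to 0 in ZS97 from D2 to D3 and for the mean difference of response, and OsNAC4 in IRAT109 at D3 gained its call (1.03). With 1 probe set per gene it went from 2 to 1 in IRAT109 at D2 and from D2 to D3, and from 1 to 0 in ZS97 from D2 to D3 and for the genotypes at D0, D1, D2 and D3, since fewer OsNAC5 probe sets were counted.

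With each array left out in turn, the counts were 3 to 4 in IRAT109 at D1, 1 to 3 at D2, 3 to 4 at D3, 2 to 3 for the mean and 1 to 2 from D2 to D3. In ZS97 they were 2 to 4 at D1, 4 to 5 at D2, 4 to 5 at D3, 3 to 4 for the mean, 0 to 1 from D1 to D2 and 0 to 1 from D2 to D3. For the mean difference of response they were 0 to 1, and for the remaining comparisons they did not move. For OsNAC7 and 1 probe set of OsNAC6, the signal was below 16 on all arrays, which limits the detection of a fall.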
